A study of Mus musculus with 9 samples.

Results

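The 8 genes described here encode metalloproteinases of mouse blood monocytes, 5 matrix metalloproteinases (Mmp8, Mmp9, Mmp14, Mmp19 and Mmp25) and 3 members of the ADAM family (Adam8, Adam9 and Adam19). They were chosen by symbol, and all 8 were found among the 19938 genes that the arrays measured, each through 1 probe set. The 8 genes and the gene lists below were chosen with earlier results of these data known. Their shares set beside those of all genes are therefore descriptions. The monocytes came from the peripheral blood of tumor-free Balb/c mice aged 14 to 18 weeks that lacked the chemokine CCL2 (Ccl2-/-), lacked its receptor CCR2 (Ccr2-/-), or carried intact copies of both genes (wild type). The knockout alleles are carried in the whole animal, so cells other than monocytes lack the gene as well. There were 3 arrays of the Affymetrix Mouse Gene 1.0 ST type for each genotype, and each array held the RNA of 5 pooled mice, so the spread given below is between pools. Magnetic columns took out T cells, B cells, neutrophils, eosinophils and cells with MHC class II, and the remaining cells were then selected for CD11b, with no antibody to NK1.1, the NK cell marker whose absence is part of the study's definition of a monocyte, named among those used on the columns.

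Matrix metalloproteinases (MMPs) are zinc-dependent enzymes that cut collagens and other parts of the extracellular matrix, and some of them are anchored in the cell membrane. ADAMs are membrane-anchored relatives that carry a disintegrin domain, and several of them cut receptors, adhesion molecules and growth factors off the cell surface, which is called shedding. Leukocytes use both families when they cross vessel walls and remodel tissue, and monocytes reach the blood and inflamed tissue in part through CCL2 and CCR2. Whether the loss of either gene is accompanied by another level of these proteases in circulating monocytes is the question that the comparisons below address.

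Levels are given as log2 of the deposited intensity, a unit in which a difference of 1 is a doubling, and genotypes were compared with limma, with the p adjusted over all genes and a call at an adjusted p under 0.05. Probe sets differ in how brightly they read, so levels are compared between genotypes and not between genes. Ccr2 itself read 9.44 ± 0.03 (SD, n = 3 arrays) in Ccr2-/- monocytes and 13.09 ± 0.15 in wild type monocytes. Ccl2 read 9.45 ± 0.36 in Ccl2-/- and 8.98 ± 0.21 in wild type monocytes, so it was not lower in Ccl2-/- arrays. All 3 Ccl2-/- arrays lay above the wild type arrays, and the gene was not called (log2 change 0.47, limma adjusted p = 0.326). The position of the Ccl2 probes with respect to the deletion is not stated in the sources at hand, so the level of Ccl2 is no check of the Ccl2-/- arrays. The median intensity was 324.1 to 355.1 on 8 arrays and 430.8 on Ccl2-/- replicate 1. The median change over all genes was 0.08 on the log2 scale for Ccl2-/- against wild type and -0.08 for Ccr2-/- against Ccl2-/-, and centring each array on its median moved these to -0.03 and 0.03.

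The 8 genes divided into 4 that were lower in Ccr2-/- than in wild type monocytes (Mmp8, Mmp19, Adam9 and Adam19) and 4 that did not pass the test in any comparison (Mmp9, Mmp14, Mmp25 and Adam8). For each of the first 4 the wild type mean was the highest, the Ccl2-/- mean lay between, and the Ccr2-/- mean was the lowest. The plot of all 8 genes by array shows both patterns.

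**Figure D1:**
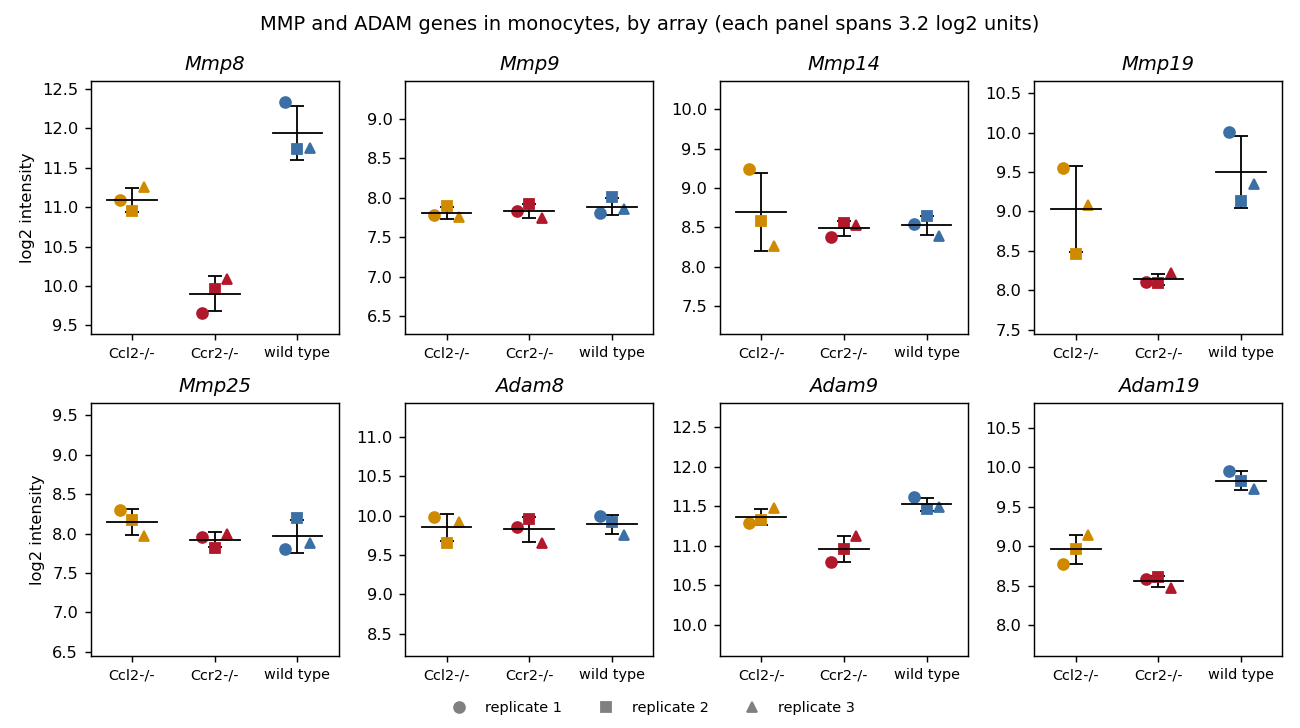
Log2 intensity of each of the 8 protease genes on the 9 arrays (3 per genotype, symbols by replicate number), with the mean and SD of each genotype as bars and equal spans on the vertical axes. In Mmp8, Mmp19, Adam9 and Adam19 all 3 Ccr2-/- arrays lie below all 3 wild type arrays, while in the other 4 genes the Ccr2-/- and wild type arrays overlap.

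Among the secreted collagenases, Mmp8 (neutrophil collagenase, which cuts fibrillar collagens) stepped down across the 3 genotypes. It read 11.09, 10.95 and 11.25 in the 3 Ccl2-/- arrays and 9.66, 9.96 and 10.08 in the 3 Ccr2-/- arrays, against 12.34, 11.74 and 11.75 in the 3 wild type arrays. No array of one genotype overlapped with an array of another, and the wild type group was spread mainly by its replicate 1. In linear intensity the arrays ran from 1973 to 2438 in Ccl2-/- and from 808.8 to 1085 in Ccr2-/- monocytes, against 3415 to 5168 in wild type. The 250 bases before its transcription start, at chr9:7558179-7558428 on the plus strand of GRCm38.p6 (RefSeq), are shown because Mmp8 had the largest change of the 8 genes. Capitals mark the letters of the PU.1 motif GAGGAAGT, here on the other strand as ACTTCCTC beginning 221 bases before the start, and of TTGCNNAA, a C/EBP motif, 19 bases before it.
Mmp8: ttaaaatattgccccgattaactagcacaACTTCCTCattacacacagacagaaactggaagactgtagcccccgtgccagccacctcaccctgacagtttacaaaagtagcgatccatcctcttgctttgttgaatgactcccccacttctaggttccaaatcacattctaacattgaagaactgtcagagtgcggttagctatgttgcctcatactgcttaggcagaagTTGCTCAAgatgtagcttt
PU.1 and C/EBP proteins are transcription factors of the myeloid lineage. On either strand, the PU.1 letters occur in 2.44% and the C/EBP letters in 9.56% of 32851 mouse promoter windows of this length. The C/EBP letters were searched only after Cebpd had been seen to follow Mmp8 across the arrays, and a match of letters is a description of the sequence and not a binding site.

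Mmp9 (gelatinase B, which degrades denatured collagen and basement membrane collagen) had nearly the same level on every array. It read 7.78, 7.90 and 7.76 in Ccl2-/-, 7.83, 7.92 and 7.75 in Ccr2-/-, and 7.81, 8.01 and 7.85 in wild type monocytes. All 3 genotypes overlapped, with the highest value on a wild type array and the lowest on a Ccr2-/- array.

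Mmp19, a secreted MMP without a close subgroup that acts on basement membrane proteins, was lowest in Ccr2-/- monocytes, where its 3 arrays lay close together. It read 9.55, 8.47 and 9.09 in Ccl2-/- and 8.10, 8.09 and 8.21 in Ccr2-/-, against 10.01, 9.13 and 9.35 in wild type arrays. The Ccr2-/- arrays lay below all others, whereas the Ccl2-/- and wild type arrays overlapped and were each spread widely, with an SD of 0.54 and 0.46.

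Mmp14 and Mmp25 encode membrane-anchored MMPs, the first a transmembrane collagenase that also activates pro-MMP2 and the second a glycolipid-anchored enzyme of leukocytes. Mmp14 read 9.24, 8.58 and 8.27 in Ccl2-/-, 8.38, 8.56 and 8.53 in Ccr2-/-, and 8.54, 8.64 and 8.40 in wild type monocytes. Apart from Ccl2-/- replicate 1, which stood above every other array and was also the array with the high median, the genotypes overlapped. Mmp25 read 8.30, 8.17 and 7.97 in Ccl2-/-, 7.96, 7.82 and 7.99 in Ccr2-/-, and 7.81, 8.20 and 7.88 in wild type monocytes, again with all 3 genotypes overlapping.

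Among the ADAMs, Adam19 (meltrin beta, a sheddase of neuregulins) separated all 3 genotypes in the deposited values, which were not scaled further. It read 8.77, 8.96 and 9.14 in Ccl2-/- and 8.58, 8.61 and 8.47 in Ccr2-/-, against 9.95, 9.82 and 9.72 in wild type arrays. The wild type arrays lay far above both knockouts, and the lowest Ccl2-/- array lay just above the highest Ccr2-/- array. That Ccl2-/- array was replicate 1, the array with the high median. By rank among the genes of its own array, Adam19 stood there at the 45.3 percentile, below the 46.3 to 48.9 of the Ccr2-/- arrays. RefSeq gives Adam19 3 transcription starts, and the window before one of them, chr11:46055734-46055983 on the plus strand of GRCm38.p6, is shown because it alone among the 7 windows matched to the 8 genes holds the AP-1 motif TGANTCA, in capitals 131 bases before the start.
Adam19: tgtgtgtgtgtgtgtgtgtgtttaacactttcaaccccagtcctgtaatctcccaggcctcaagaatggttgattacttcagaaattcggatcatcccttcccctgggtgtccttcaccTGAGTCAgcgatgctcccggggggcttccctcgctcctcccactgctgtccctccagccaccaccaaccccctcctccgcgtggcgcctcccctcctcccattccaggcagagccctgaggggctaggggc
AP-1 is a dimer of Fos and Jun proteins that is used by many protease promoters. These letters occur in 6.75% of all windows, on either strand.

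Adam9 (meltrin gamma, a widely expressed sheddase) was lower in Ccr2-/- monocytes by a smaller amount than the 3 genes above. It read 11.29, 11.33 and 11.48 in Ccl2-/- and 10.79, 10.97 and 11.13 in Ccr2-/-, against 11.62, 11.46 and 11.49 in wild type arrays. The Ccr2-/- arrays lay below all other arrays, and Ccl2-/- and wild type arrays overlapped.

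Adam8 (CD156a, an ADAM of myeloid cells that cuts adhesion molecules) had overlapping arrays in all 3 genotypes. It read 9.98, 9.65 and 9.92 in Ccl2-/-, 9.85, 9.96 and 9.66 in Ccr2-/-, and 9.99, 9.92 and 9.75 in wild type monocytes. Its window, chr7:139992563-139992812 on the minus strand of GRCm38.p6, is shown beside those of Mmp8 and Adam19 because this gene was not called, and yet it holds the same C/EBP letters as Mmp8, in capitals 219 bases before the start.
Adam8: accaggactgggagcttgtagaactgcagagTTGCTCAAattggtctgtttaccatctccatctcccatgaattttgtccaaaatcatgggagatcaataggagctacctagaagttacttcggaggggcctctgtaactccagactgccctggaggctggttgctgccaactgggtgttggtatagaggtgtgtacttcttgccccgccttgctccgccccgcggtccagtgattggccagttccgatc
The C/EBP letters were thus present before a gene that was called and before one that was not. The windows of Mmp14, of Mmp25 and of the other two starts of Adam19 held none of the 3 motifs. Windows for Mmp9, Mmp19 and Adam9 were not analysed here.

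In Ccl2-/- monocytes compared with wild type, Adam19 fell to 0.546-fold and was the only one of the 8 genes past the test (log2 change -0.87, standard error 0.11, limma adjusted p = 0.0283). In all, 1 of 8 genes was called lower, where 0.0853% of all genes were called lower. Mmp8 was 0.556-fold with 3 of 3 arrays below wild type, a change of about the same size with a larger standard error (0.18), and did not pass (log2 change -0.85, 95% interval -1.26 to -0.43, adjusted p = 0.102). Arrays of Ccl2-/- lay wholly below those of wild type for Mmp8 and Adam19, 2 of 8 genes, which was the case in this direction for 9.31% of all genes. Mmp19 had a log2 change of -0.46 with a 95% interval of -1.13 to 0.20 (adjusted p = 0.491), which leaves room for a fall to 0.458-fold. For Adam9 the change was -0.16 (95% interval -0.39 to 0.07), and the other 4 genes lay between -0.08 and 0.18, with adjusted p of 0.493 to 0.880 over these 5. The median log2 change of the 8 genes was -0.12, beside 0.08 over all genes. By size alone, as a ratio over 1.2 and a difference over 100 between mean intensities, Mmp8, Mmp19 and Adam19 were lower, as were 3.76% of all genes. The call of Adam19 was lost with quantile normalization (adjusted p = 0.0554), with arrays centred on their medians (0.0561), in a fit of the 6 arrays compared (0.224) and with the replicate number as a block (0.156). It was also lost, with an adjusted p of 0.0703 to 0.188, without any one of wild type replicates 1 to 3, Ccr2-/- replicates 1 to 3 or Ccl2-/- replicate 2.

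In Ccr2-/- monocytes compared with wild type, 4 of the 8 genes fell, where 8.38% of all genes were called lower. Mmp8 fell to 0.243-fold (log2 change -2.04, standard error 0.18, limma adjusted p = 0.000579). Its change stood at the 0.0201 percentile of all genes, among the very lowest. Mmp19 fell to 0.390-fold (log2 change -1.36, standard error 0.29, adjusted p = 0.0155), and Adam19 to 0.413-fold (log2 change -1.28, standard error 0.11, adjusted p = 0.000530). Adam9 fell to 0.676-fold (log2 change -0.57, standard error 0.10, adjusted p = 0.00644). For each of these 4 genes the 3 Ccr2-/- arrays lay below the 3 wild type arrays, as they did for 18.1% of all genes. The other 4 genes had log2 changes of -0.06 to -0.04. Their 95% intervals were narrow for Mmp9 (-0.25 to 0.13), Adam8 (-0.33 to 0.21) and Mmp25 (-0.33 to 0.24) and wider for Mmp14 (-0.53 to 0.45). The median log2 change of the 8 genes was -0.315 (0.804-fold), beside 0.01 over all genes. The same 4 genes passed the limits on size, as did 9.21% of all genes in this direction. The call of Mmp19 was lost without wild type replicate 1 (adjusted p = 0.0528), Ccr2-/- replicate 1 (0.0625) or Ccr2-/- replicate 2 (0.0596).

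The knockouts were also compared with each other, since the comparisons with wild type share the wild type arrays and cannot be set against one another as if they were separate. Mmp8 was 0.438-fold in Ccr2-/- relative to Ccl2-/- monocytes and was the only one of the 8 genes called (log2 change -1.19, standard error 0.18, limma adjusted p = 0.0174), where 2.87% of all genes were called lower. Mmp19 (log2 change -0.90, 95% interval -1.56 to -0.23, adjusted p = 0.142), Adam9 (-0.41, 95% interval -0.64 to -0.18, adjusted p = 0.0657) and Adam19 (-0.41, 95% interval -0.65 to -0.16, adjusted p = 0.0796) did not pass, although their arrays did not overlap either. With Mmp8 these were 4 of 8 genes without overlap in this direction in the deposited values, as for 16% of all genes. They also passed the limits on size, as did 9.16% of all genes. Mmp9, Mmp14, Mmp25 and Adam8 had changes of -0.22 to 0.02. With arrays centred on their medians, Adam9 (log2 change -0.30, adjusted p = 0.364) and Adam19 (-0.30, adjusted p = 0.413) changed less. Without Ccl2-/- replicate 1, Adam9 (adjusted p = 0.0486) and Adam19 (0.0229) were called as well. Without Ccl2-/- replicate 3, Ccr2-/- replicate 1 or Ccr2-/- replicate 2 Mmp8 was not, with an adjusted p of 0.0583 to 0.0855, nor was it in a fit of the 6 arrays compared (0.0651) or with the replicate number as a block (0.0553).

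**Figure D2:**
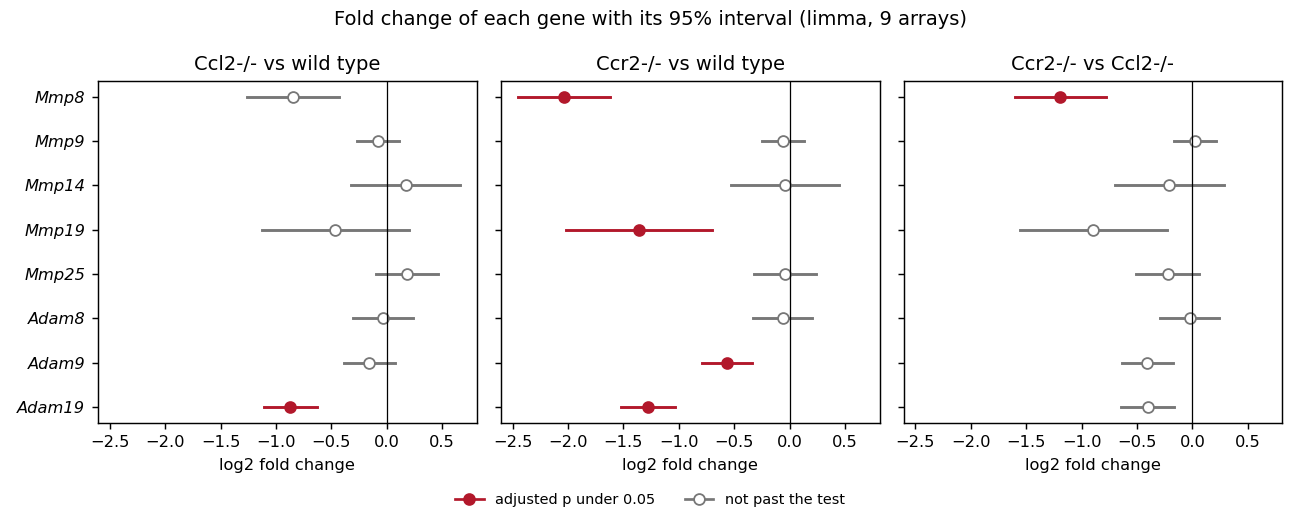
Log2 fold change of the 8 genes (rows) with 95% intervals in the 3 comparisons (panels), from limma on 9 arrays, with filled red points for an adjusted p under 0.05. The red points are Adam19 in Ccl2-/- against wild type, Mmp8, Mmp19, Adam9 and Adam19 in Ccr2-/- against wild type, and Mmp8 in Ccr2-/- against Ccl2-/-.

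In the rest of the MMP family no gene passed the test. Of 22 measured Mmp genes, Mmp8 and Mmp19 were the only ones called in Ccr2-/- against wild type, a share near the 8.38% of all genes called lower. The 17 Mmp genes outside the 8 described here, of which none was called in any of the 3 comparisons, had log2 changes of -0.17 to 0.21 there (median over the 22 genes -0.03). Mmp8 lies in a run of 10 neighbouring Mmp genes on chromosome 9. Its 9 neighbours in that run, which include the stromelysins Mmp3 and Mmp10, the collagenase Mmp13 and the macrophage elastase Mmp12, had log2 changes of -0.12 to 0.21 in Ccr2-/- against wild type. The smallest adjusted p among them was 0.577, and none had an unadjusted p under 0.05. In Ccl2-/- against wild type the 9 neighbours lay between -0.18 and 0.31, and Mmp8 itself at -0.85.

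Of 34 measured Adam genes, 4 were lower and 2 higher in Ccr2-/- than in wild type monocytes (8.38% and 4.91% of all genes), so the family's shares lay near those of all genes, and the median change was -0.01. Beside Adam9 and Adam19 these were Adam15 and Adam17, and the higher ones were Adam1a and Adamdec1. Adam15, a sheddase with an integrin-binding motif, averaged 10.74 ± 0.18 in Ccr2-/- and 11.69 ± 0.13 in wild type arrays (SD, n = 3 each), a fall to 0.517-fold (limma adjusted p = 0.00119). It was the only gene of the 34 called in Ccr2-/- against Ccl2-/- (log2 change -0.70, adjusted p = 0.0211), where 2.87% of all genes were called lower. Adam17, the converting enzyme that releases TNF, averaged 11.67 ± 0.06 in Ccr2-/- and 11.95 ± 0.09 in wild type arrays (log2 change -0.27, adjusted p = 0.0437). Adamdec1, a secreted ADAM-like enzyme of macrophages and dendritic cells, rose 1.81-fold (adjusted p = 0.0157), and Adam1a, known for its part in sperm formation, rose 1.24-fold (adjusted p = 0.0113). In Ccl2-/- against wild type Adam19 was the only one called of the 34 genes. With arrays centred on their medians, 3 were lower and 1 higher in Ccr2-/- against wild type, and none was called in the other comparisons, so that the calls of Adam15 between the knockouts and of Adam19 in Ccl2-/- against wild type were lost.

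The ADAMTS genes, secreted relatives with thrombospondin repeats, had 3 members that rose and none that fell among 18 measured in Ccr2-/- against wild type, where 4.91% of all genes were called higher and 8.38% lower, with a median change of 0.05. Adamts3 averaged 11.11 ± 0.05 in Ccr2-/- and 9.84 ± 0.06 in wild type arrays (SD, n = 3 each), and rose 2.41-fold (limma adjusted p = 0.00109). Adamts14 averaged 12.46 ± 0.05 in Ccr2-/- and 11.35 ± 0.11 in wild type arrays, and rose 2.16-fold. Both enzymes process the ends of procollagen. Adamts10, which acts in the assembly of fibrillin microfibrils, rose 1.40-fold (adjusted p = 0.00695). None of the 18 was called in Ccl2-/- against wild type, where Adamts3 had a log2 change of 0.71 (adjusted p = 0.101) and Adamts14 of 0.69 (adjusted p = 0.0788). Among 7 genes for inhibitors of these enzymes, the TIMPs included, Reck, a membrane-anchored inhibitor of MMPs, rose 1.40-fold in Ccr2-/- against wild type (adjusted p = 0.0229), and the other 6 were not called.

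Of 17 genes whose products activate these proteases or help the sheddases ADAM10 and ADAM17 to the cell surface, 6 fell and none rose in Ccr2-/- against wild type, where 8.38% of all genes were called lower, with a median change of -0.07. Furin, the protease that removes the pro-peptide from ADAMs and membrane-type MMPs, averaged 11.28 ± 0.05 in Ccr2-/- and 11.82 ± 0.12 in wild type arrays (SD, n = 3 each), a fall to 0.687-fold (limma adjusted p = 0.00320). Rhbdf2, the iRhom that escorts ADAM17, fell to 0.605-fold (adjusted p = 0.00156). The tetraspanins Tspan17 (0.585-fold, adjusted p = 0.00086) and Tspan14 (0.786-fold, adjusted p = 0.0201), which escort ADAM10, fell as well. So did Plau, the urokinase that generates plasmin (0.639-fold, adjusted p = 0.00769), and its receptor Plaur (0.605-fold, adjusted p = 0.00227). In Ccr2-/- against Ccl2-/-, Plaur (log2 change -0.69, adjusted p = 0.0168), Rhbdf2 (-0.50, adjusted p = 0.0307) and Tspan17 (-0.38, adjusted p = 0.0482) were called lower, as were 2.87% of all genes, and none of the 17 was called in Ccl2-/- against wild type. With centred arrays none of the 3 calls between the knockouts was left.

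Of 26 measured genes for proteins that are known to be shed from leukocytes, 9 fell and none rose in Ccr2-/- against wild type, where 8.38% of all genes were called lower (median change -0.12). They encode receptors, adhesion molecules and ligands that ADAM10, ADAM17 or related enzymes cut. App, the amyloid precursor protein, fell to 0.544-fold (limma adjusted p = 0.00118) and Il6ra, the interleukin-6 receptor, to 0.694-fold (adjusted p = 0.00155). The TNF receptor Tnfrsf1a fell to 0.764-fold (adjusted p = 0.00695), Notch2 to 0.787-fold (adjusted p = 0.00951), the CSF-1 receptor Csf1r to 0.776-fold (adjusted p = 0.00964) and the membrane-bound chemokine Cxcl16 to 0.724-fold (adjusted p = 0.0164). Csf1r is also one of the general monocyte markers below. In Ccr2-/- against Ccl2-/-, 6 of the 26 genes were called lower, beside 2.87% of all genes. They were App, Il6ra, Tnfrsf1a, Notch2, Cxcl16 and the receptor tyrosine kinase Axl (log2 change of Axl -1.24, adjusted p = 0.0426). In Ccl2-/- against wild type none of the 26 was called, and the median change was 0.02. With arrays centred on their medians, 4 of the 26 genes were called lower in Ccr2-/- against wild type and none in Ccr2-/- against Ccl2-/-.

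**Figure D3:**
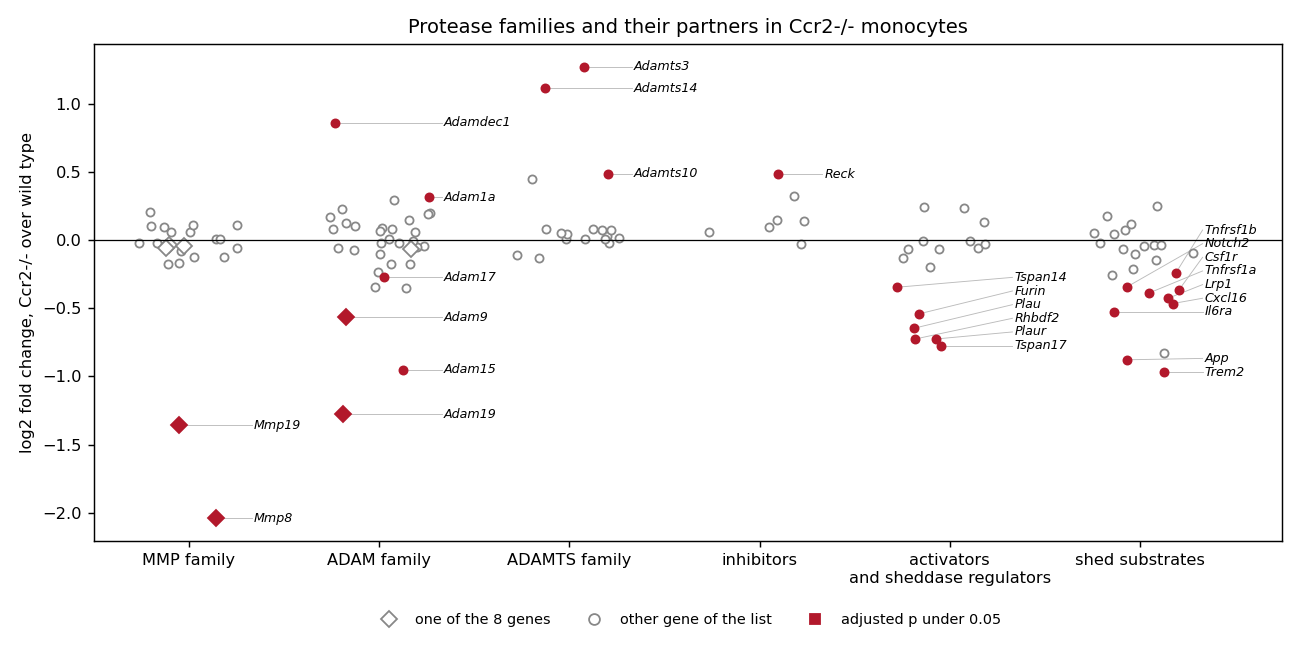
Log2 fold change of Ccr2-/- over wild type for each measured gene of 6 lists (columns, points spread sideways only for legibility), with diamonds for the 8 genes described and red for an adjusted p under 0.05. The MMP column holds 2 red points (Mmp8 and Mmp19), the ADAMTS column 3 above 0, and the column of shed substrates 9 below 0.

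Several cell type marker lists moved with the 4 lower protease genes, and in bulk RNA fewer cells of a type and less RNA per cell cannot be told apart. All 10 markers of Ly-6Chi monocytes, the classical inflammatory subset, were lower in Ccr2-/- than in wild type monocytes, with a median log2 change of -1.39. Their summed intensity was 28285 to 33749 in Ccl2-/- and 18173 to 20071 in Ccr2-/- arrays, against 38636 to 46962 in wild type arrays, which is the same order as that of Mmp8. Of 11 general monocyte markers, 7 were lower in Ccr2-/- than in wild type (median -0.32), and their sum was 77550 to 84112 in Ccl2-/-, 65988 to 70889 in Ccr2-/- and 81292 to 83436 in wild type arrays. Markers of monocytes and of NK cells both read high among all genes, so the changes given here are those of the whole selected fraction. In wild type the monocyte markers stood at the 67.7 (Cd14) to 100 (Lyz2) percentile, and the NK cell markers at 40.1 (Klra8) to 99.6 (Nkg7). In Ccr2-/- these ranges were 41.6 to 100 and 65.2 to 100, between the same genes. All 16 measured NK cell markers were higher in Ccr2-/- than in wild type arrays (median 0.79), with sums of 88234 to 106851 in Ccl2-/- and 119878 to 124057 in Ccr2-/-, against 70083 to 76550 in wild type. Of 15 markers of the patrolling Ly-6Clo subset, 4 were higher and 1 lower in Ccr2-/- than in wild type (4.91% and 8.38% of all genes). Their sums were highest in Ccl2-/-, at 79865 to 84463, so their order was not that of Mmp8. They ran from 76027 to 78983 in Ccr2-/- and from 66016 to 77283 in wild type arrays. The part of these shifts in the changes of Mmp8, Mmp19, Adam9 and Adam19 was not tested. Nor was it tested for the called genes of the ADAM, ADAMTS, inhibitor, activator and shed substrate lists.

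The study counts Mmp8 among its marker genes of Ly-6Chi monocytes, although it is not in the Ly-6Chi list used here. It describes reduced Mmp8 in Ccl2-/- monocytes, within a shift of such markers that was larger in Ccr2-/- monocytes. Because MMP8 is best known from neutrophils, their markers were read beside it. The 8 defining markers of neutrophils and their precursors (Ly6g, Camp, Ltf, Ngp, Elane, Mpo, Prtn3 and Ctsg) gave sums of 1855 to 3357 in Ccl2-/- and 1997 to 2398 in Ccr2-/- arrays, against 1689 to 2360 in wild type arrays. None of the 8 was called in any comparison, and their sums overlapped between all genotypes. Ly6g, the target of the neutrophil depletion, read 140.9 to 187.9 in Ccl2-/- and 144.0 to 157.2 in Ccr2-/- arrays, against 146.9 to 180.5 in wild type arrays. The deposited values carry no measure of background, so none of these markers can be called absent. The full list of 18 neutrophil genes did differ, with sums of 10425 to 11756 in Ccl2-/- and 8679 to 9280 in Ccr2-/-, against 12565 to 15849 in wild type. These sums did not overlap, and their order was that of Mmp8. In Ccr2-/- against wild type 3 of its genes fell, Cd177 (log2 change -1.94), Csf3r (-0.94) and Padi4 (-0.38), where 8.38% of all genes were called lower. Cd177 is in the Ly-6Chi list as well, so these lists are not separate. The part of this shift in the change of Mmp8 was not tested.

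**Figure D4:**
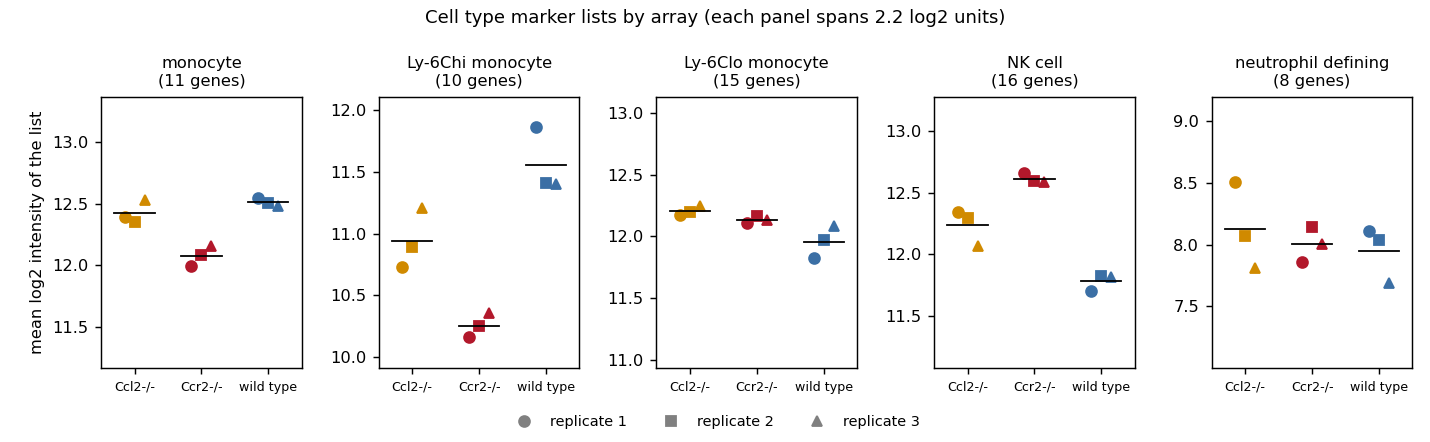
Mean log2 intensity of 5 marker lists on the 9 arrays (3 per genotype, symbols by replicate number, bars at the genotype means), with equal spans on the vertical axes. The Ly-6Chi list is lowest and the NK cell list highest in the 3 Ccr2-/- arrays, and the defining neutrophil markers overlap between genotypes. The full neutrophil list, whose sums differed between genotypes, is not drawn.

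Across the 9 arrays the 4 lower genes followed one another, as a description of values that share the genotypes and their array scaling. The Pearson r was 0.962 for Mmp8 with Adam9, 0.928 for Mmp8 with Adam19, 0.913 for Mmp8 with Mmp19 and 0.774 for Mmp19 with Adam19. With the genotype means taken out of the same 9 arrays, r was 0.829 for Mmp8 with Adam9 and 0.668 for Mmp8 with Mmp19. It was 0.417 for Mmp8 with Adam19, 0.340 for Adam9 with Adam19, 0.279 for Mmp19 with Adam9 and -0.05 for Mmp19 with Adam19. Mmp8 and Mmp9 had an r of 0.116 over the 9 arrays and of -0.589 with the genotype means taken out. The 4 genes were grouped because each fell in Ccr2-/- arrays, so a high r between them over the 9 arrays follows in part from that choice.

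Among 19070 genes with a mean intensity over 100, the 3 most like Mmp8 by Pearson r over the 9 arrays were Cebpd (r = 0.997), a C/EBP transcription factor of myeloid cells, Usf1 (0.995) and Osbpl9 (0.995). Those most like Adam9 were Atp6v1b2 (0.995), a subunit of the proton pump of lysosomes, Psap (0.995), the precursor of the lysosomal saposins, and Gatc (0.992). For Adam19 they were Ttc12 (0.990), Lpcat1 (0.989) and Ptger2 (0.989), a receptor of prostaglandin E2, and for Mmp19 Emp1 (0.983), Gorasp1 (0.977) and Tspo (0.972). The genes most like the 4 uncalled proteases were Olfr313, Fam189a2 and Gm10822 for Mmp14 (r of 0.989 to 0.994), Morn5, Tnr and A430033K04Rik for Mmp25 (0.969 to 0.981), Wnt5a, 1810062G17Rik and Nefm for Adam8 (0.915 to 0.939) and Rbm43, Dgat1 and Fam216a for Mmp9 (0.910 to 0.930). These are the extremes of a search over many genes on 9 arrays, and they carry no test.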

How the data were processed

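The authors ran Affymetrix Mouse Gene 1.0 ST arrays through dChip and deposited 1 linear intensity per transcript cluster and array. Neither the version of dChip nor its normalization or expression model is stated in the sources at hand, which matters because the values reported were not scaled further between arrays. Arrays have no read depth, and their number, 3 per genotype, limits the precision. Every p refers to the spread between arrays of pooled RNA and not between mice.

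Of 35512 clusters, 21789 carried 1 gene symbol in the platform annotation, 1621 several and 12102 none, and the first kind was used. Where a gene had several clusters, the one with the highest mean log2 value was taken, which left 19938 genes. Values below 1 (19 of 319608) were set to 1, and log2 of the deposited values was modelled by genotype on 9 arrays together (limma 3.58.1, R 4.3.3, lmFit and eBayes, tested on simulated data), with p adjusted by Benjamini-Hochberg within a comparison. Plots were drawn with matplotlib 3.10.9. The 8 genes and the gene lists were chosen with earlier results of these data known, and the lists were written from general knowledge. Named genes were the 8 genes, the called genes of each protease list (at most 6 by p), the 3 genes most like each of the 8, and the targeted genes. Trem2, Lrp1 and Tnfrsf1b in a plot, the neutrophil genes and the neighbours of Mmp8 fall outside this rule and were named after their values were seen. Promoter windows come from RefSeq (GRCm38.p6), where 7 windows matched 5 of the 8 genes. The build behind the array annotation is not stated, and no coordinates were taken from it.

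Alternative settings were quantile normalization, median centring, leaving out genes with a mean of at most 100, a variance trend with intensity, adding 50 before log2, averaging the clusters of a gene, separate fits of 6 arrays, a block for the replicate number, leaving out each array, and the limits on size named in the methods (ratio over 1.2, difference over 100, here of group means) in place of the test.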

Additional observations from a re-analysis of the deposited data

How the results depend on the processing

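The 4 genes called lower in Ccr2-/- against wild type (Mmp8, Mmp19, Adam9 and Adam19) were the same 4 under every setting other than leaving out an array, where 3 to 4 were called, Mmp19 being the one lost. The single call in Ccl2-/- against wild type rested more on the settings. None of the 8 genes was called there with quantile normalization (Adam19 adjusted p = 0.0554), centring (0.0561), a fit of the 6 arrays compared (0.224) or the replicate number as a block (0.156), 2 were called with an intensity trend (Mmp8 with an adjusted p of 0.0355, and Adam19), 3 were past the size limits (Mmp8, Mmp19 and Adam19), and leaving out 1 array gave 0 to 1. In Ccr2-/- against Ccl2-/-, 2 were called with an intensity trend (Mmp8 and Adam9), 0 in the fit of 6 arrays (Mmp8 adjusted p = 0.0651) and 0 with the block (0.0553), 4 were past the size limits, and leaving out 1 array gave 0 to 3. The labels do not say whether arrays of the same replicate number were paired, and the block is given only as a setting. Deviations from the genotype means correlated at -0.18 to 0.562 for same-numbered arrays and at -0.687 to 0.563 for the others. Such values cannot decide the question, because deviations from a mean of 3 arrays depend on one another. Over all genes, the block changed the calls to 7 in Ccl2-/- against wild type (32 without it), to 2094 in Ccr2-/- against wild type (2648) and to 167 between the knockouts (718). In that order the counts were 26, 1647 and 261 with centring, 366, 3279 and 1344 with an intensity trend, 2, 3139 and 17 in fits of 6 arrays, 62, 2696 and 687 with quantile normalization, and 105, 2776 and 859 with an offset of 50.

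Under these settings, only changes of the 8 genes that had not passed the test turned their sign. The log2 change of Adam8 in Ccr2-/- against Ccl2-/- was 0.026 with quantile normalization and 0.084 with centring, and -0.12 to 0.057 when an array was left out. Leaving out 1 array gave ranges that crossed 0 for Mmp14 (-0.10 to 0.38) and Adam8 (-0.11 to 0.060) in Ccl2-/- against wild type, for Mmp9 (-0.10 to 0.0049), Mmp14 (-0.10 to 0.018), Mmp25 (-0.12 to 0.075) and Adam8 (-0.13 to 0.019) in Ccr2-/- against wild type, and for Mmp9 (-0.022 to 0.066) and Mmp14 (-0.42 to 0.064) in Ccr2-/- against Ccl2-/-. The cause of these shifts was not tested. The deposited values carry no measure of signal over background, so how far the dimmer probe sets can follow a change is unknown, and no gene can be called absent. Without Ccl2-/- replicate 1, a setting added after seeing the data, 5 of 34 Adam genes were lower and 2 higher in Ccr2-/- against wild type, and 3 were lower in Ccr2-/- against Ccl2-/-. Likewise 2 of 7 inhibitors were then higher in Ccr2-/- against wild type, and 2 of 18 ADAMTS genes were higher in Ccr2-/- against Ccl2-/-, as also with centring.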

Other observations

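Markers of cell types outside the comparisons above were read for the same arrays. None of 10 T cell markers and none of 7 measured B cell markers was called in any comparison. The T cell sums were spread widely between Ccr2-/- arrays, from 6199 to 16243. They ran from 6640 to 9405 in Ccl2-/- and from 8712 to 9522 in wild type arrays. Of 7 markers of basophils and mast cells none was called either, with a median log2 change of -0.76 in Ccl2-/- against wild type, where 6 had an unadjusted p under 0.05, and of -0.11 in Ccr2-/- against wild type. Of 8 dendritic cell markers, Flt3 (log2 change -0.76) and Cd209a (-1.06) were lower in Ccr2-/- than in wild type, and Flt3 (-0.73) was lower in Ccl2-/- than in wild type. The study counts Flt3 among developmental genes and describes it as lower in Ccr2-/- monocytes only, which differs from the call in Ccl2-/- given here. Of 5 eosinophil markers, Ccr3, the target of the eosinophil depletion, was higher in Ccr2-/- than in wild type (0.96) and than in Ccl2-/- (1.17), and the other 4 were not called. Of 6 measured platelet markers, Itgb3 was higher in Ccl2-/- than in wild type (0.99) and lower in Ccr2-/- than in Ccl2-/- (-1.17), and no other was called. These 4 genes were named after their values were seen.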
